A study of Drosophila melanogaster with 16 samples.

Results

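Transcripts that were already bright in young fly hearts and brighter still in old ones are described here. They are 60 of the 16637 transcripts on the array, and belong to 52 named genes and 2 transcripts without a name. A transcript was chosen when the mean of its 4 samples at 40 days exceeded the mean of its 4 samples at 10 days by at least 0.8 on the log2 scale (1.74-fold), when its lowest 40-day sample lay above its highest 10-day sample, and when its 10-day mean was at least 8.5 on the log2 scale, which is a linear intensity of 362. The rule also named 5 transcripts to be left out, of which 4 met these conditions, so that 64 transcripts met them in all. Since the rule used the difference between the ages, that difference is given for the chosen transcripts as a description, with no test.

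Hearts were dissected by hand from male Drosophila melanogaster of one isogenic stock, named w1118, Canton S. The group aged 40 days had 4 samples, A to D, and so had the group aged 10 days. Every sample pooled 10 cardiac tubes, from flies housed 30 together at 25°C and 60% humidity. No group carried a transgene or received a treatment, and age was the only difference that the labels give. RNA of each sample was amplified and labelled in 2 dyes, Cy3 and Cy5, and the 16 labelled samples shared 8 arrays of 1 slide, a 40-day and a 10-day sample on each.

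The cardiac tube of the fly is a contractile vessel that pumps haemolymph, the blood of insects, through an open body cavity. Its muscle cells are flanked by pericardial cells, which filter haemolymph, and blood cells (haemocytes) and fat body lie close to it. Flies answer infection, wounding and other stress by secreting proteins into the haemolymph. Among these are receptors for bacterial cell walls, short peptides made under control of the Toll pathway, the Turandot proteins made under control of the JAK/STAT pathway, clotting proteins and protease inhibitors. Secretion itself depends on vesicle fusion, in which SNARE proteins such as synaptobrevin join a vesicle to its target membrane. Proteins are sent back to lysosomes by endosomal sorting, where the ESCRT complexes bud vesicles inward and a proton pump, the V-ATPase, keeps the compartment acid.

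Values below are log2 intensities of the authors' normalized table, averaged over the 8 probes of a transcript and over both dyes. Brightness depends on the probes as well as on the amount of RNA, so it is compared between samples and not between transcripts. Of the 16 columns of these values, 8 match the raw scan of the sample they are labelled with, and the other 8 match the raw scan of a different sample that has the same age and dye. The rank correlation of a column with its best scan was 0.979 or more, and with the second best 0.883 or less. The age of a column is the same in both cases, but the letter of a sample is not settled by the files. At 40 days the Cy5 column of each letter matches its own scan and the Cy3 column that of another letter. If the scans are labelled correctly, each 40-day value below averages columns of different samples. At 10 days samples B and C are exchanged in both dyes, so their values are not mixed. The lettered 40-day values and their SDs carry this limit. In each column 22% to 30% of gene probes exceeded 95% of the 4100 control probes in brightness. In pooled tissue, fewer cells of one type and less RNA per cell cannot be told apart.

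In 40-day hearts the chosen transcripts were higher by 0.81 to 2.77 (median 1.22), or 1.76-fold to 6.81-fold (median 2.33-fold). Their 40-day means ran from 9.54 to 14.15 (median 10.93) and their 10-day means from 8.52 to 12.35 (median 9.63). The difference was at least 2 for 8 transcripts, between 1 and 2 for 37 and under 1 for 15. The Turandot gene TotC, the peptidoglycan receptor PGRP-SA, the lysozyme CG6429, TotA, the Kunitz-type inhibitor CG31778, the fat body signal fit, the tetraspanin Tsp42Ea and CG6891 made up the first of these classes. Most of them are secreted proteins.

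Over all 16637 transcripts the median difference was 0.01, and over the 1370 transcripts with a 10-day mean of at least 8.5 (8.23% of all) it was -0.25. Samples of the ages did not overlap, with 40 days higher, for 547 transcripts (3.29%) of all and for 87 (6.35%) of those 1370. The mirror image was about as common, since 86 (6.28%) of the 1370 had all 40-day samples below all 10-day samples. With a difference of at least 0.8 added, 64 (4.67%) were higher and 59 (4.31%) were lower at 40 days. Below the brightness limit the same conditions were met by 135 of 15267 transcripts (0.884%). Across all transcripts limma called 50 (0.301%) higher and 6 (0.0361%) lower at 40 days at an adjusted p under 0.01, and 12 of the 60 were among those 50. At an adjusted p under 0.05 it called 121 (0.727%) higher, 31 of the 60 among them. As the rule chose on the same contrast, nothing is read from these counts. They also depended strongly on the fit. With the replicate letter as a block limma called 4 higher, 0 lower (970 at an unadjusted p under 0.05) and 1 member, and with each column under the channel it follows 118 higher, 16 lower and 30 members. Left-out samples gave as few as 20 higher (without 10-day A) and 4 members (without 40-day B).

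**Figure D1:**
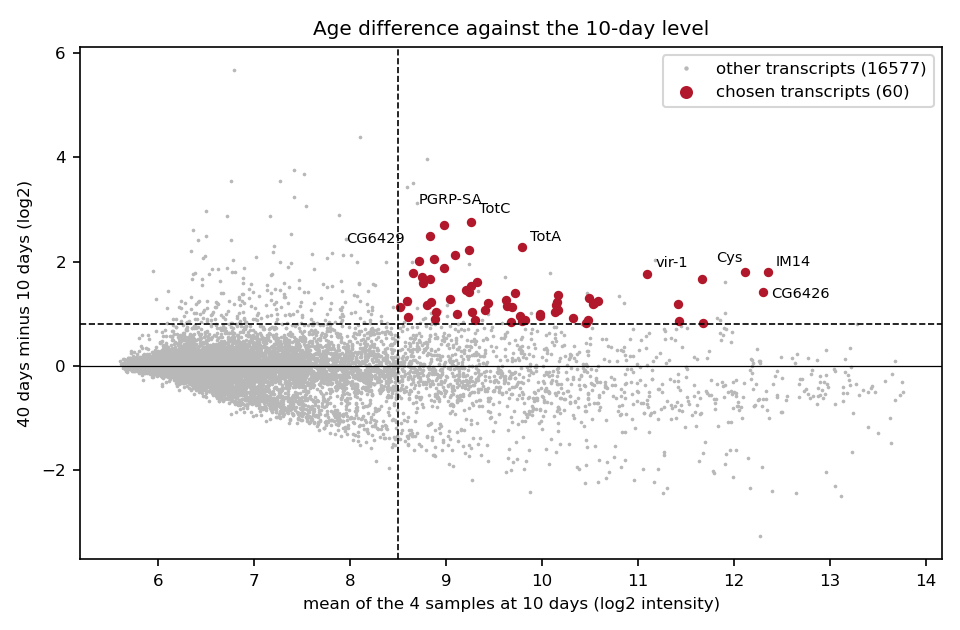
Difference between 40 and 10 days (log2, vertical axis) against the 10-day mean (log2 intensity, horizontal axis) for 16637 transcripts, with the 60 chosen ones in red, the others in grey and the limits of 8.5 and 0.8 as dashed lines. The chosen transcripts lie in the upper right field between 0.81 and 2.77, and grey points in that field either had overlapping samples or are among the transcripts the rule left out.

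The limits cut through a continuous cloud. Just inside the limit on the difference were CG15098 (0.81) and CG32695 (0.82), and just outside it Tsp42Ef (0.80, below the limit before rounding) and FBtr0086540 (0.76). At the brightness limit CG2064 (8.52) and CG30269 (8.59) were inside, and the cytoplasmic actin Act5C (8.45) and the pattern receptor PGRP-SD (8.38) were outside. The gap between the lowest 40-day and the highest 10-day sample was smallest for CG6426 and FBtr0100644 (0.002 and 0.003), while CG10157 and CG15012 missed separation with gaps of -0.006 and -0.051. Over the 60 the gap had a median of 0.49, was at least 1 for 9 transcripts and was under 0.25 for 13.

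The Turandot genes, which encode small secreted proteins induced by heat, infection and other stress, held the largest difference. TotC had 13.05, 12.73, 11.10 and 11.24 in 40-day samples A to D, against 8.72, 8.44, 10.58 and 9.31 in 10-day samples A to D. Its means were 12.03 ± 1.0 and 9.26 ± 0.95 (SD, n = 4 each), 6.81-fold apart. At 40 days A and B stood well above C and D, and 10-day sample C came within 0.53 of the lowest 40-day sample. TotA had 12.78, 12.53, 11.41 and 11.53 at 40 days, against 9.71, 9.75, 10.78 and 8.92 at 10 days, a difference of 2.28. The same samples were high within each age as for TotC. TotA and TotC are adjacent genes on chromosome 3R, with 0 genes between them in the RefSeq annotation (Release 6).

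PGRP-SA, a circulating receptor that recognises bacterial peptidoglycan and starts the Toll pathway, was separated most clearly. Its 40-day samples were at 11.63, 11.89, 12.02 and 11.17, against 9.26, 8.58, 8.93 and 9.14 at 10 days. The gap of 1.92 was the widest among the 60, the difference was 6.51-fold, and the ages did not overlap at any of its 8 probes, whose differences ran from 1.05 to 3.35. IM14, now named Dso2, is a short peptide secreted on Toll signalling. It had 14.64, 14.78, 13.84 and 13.33 at 40 days, against 12.22, 12.37, 11.72 and 13.11 at 10 days. Samples D of both ages came close together, with a gap of 0.22. CG18067, now Bombardier (Bbd), a gene that acts with the Toll-induced bomanin peptides, had 13.45, 13.68, 12.95 and 13.22 at 40 days, against 11.28, 11.97, 11.27 and 12.16 at 10 days, and was 3.16-fold higher.

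Virus-induced RNA 1 (vir-1), a marker of the JAK/STAT response to viruses, was represented by 3 transcripts. vir-1-RC had 12.96, 13.02, 12.79 and 12.69 at 40 days, against 10.72, 11.20, 11.47 and 11.00 at 10 days, a difference of 1.77 with small spread (SD 0.16 and 0.32). vir-1-RB differed by 1.27 and vir-1-RD by 1.17, the last with a gap of only 0.04. Vago, a secreted antiviral protein, had 11.29, 11.16, 11.92 and 10.86 at 40 days, against 10.52, 9.41, 10.30 and 10.35 at 10 days. It was 2.24-fold higher, with no overlap.

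Enzymes that act on bacterial walls and inhibitors of proteases formed the next group. CG6429, an invertebrate-type lysozyme, had 11.78, 11.27, 10.83 and 11.40 at 40 days, against 8.5, 9.18, 8.41 and 9.24 at 10 days, or 5.6-fold more. Its relative CG6426, with 1 gene between them on chromosome 2R, had 14.01, 14.21, 13.12 and 13.59 at 40 days, against 11.95, 12.18, 11.99 and 13.11 at 10 days. Sample C at 40 days and sample D at 10 days almost met, and the difference was 1.42. Cystatin-like (Cys), an inhibitor of cysteine proteases, had 14.36, 14.35, 13.62 and 13.33 at 40 days, against 11.91, 12.04, 12.11 and 12.43 at 10 days. CG6357, which encodes a peptidase of the papain family, the kind of enzyme that cystatins inhibit, had 11.18, 11.13, 10.44 and 10.64 at 40 days, against 8.31, 10.00, 8.48 and 9.11 at 10 days, and was 3.66-fold higher. Both were high in 40-day A and B, and 10-day sample B of CG6357 stood apart from the other 3. CG31778 had 11.38, 11.76, 11.07 and 11.62 at 40 days, against 9.13, 9.55, 8.67 and 9.62 at 10 days, a 4.64-fold difference with a gap of 1.45.

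Proteins of haemolymph and fat body also belonged to the set. Fondue (fon), which takes part in clotting, had 10.24, 10.65, 10.77 and 10.13 at 40 days, against 8.62, 8.62, 8.51 and 8.88 at 10 days. The samples of an age lay close together (SD 0.31 and 0.16), and the gap was 1.24. fit, a satiety signal that fat body secretes, had 12.05, 12.06, 11.05 and 9.66 at 40 days, against 8.95, 9.28, 8.96 and 9.17 at 10 days. It had the largest spread of any chosen transcript at 40 days (SD 1.13) and a small one at 10 days (SD 0.17), so that sample D at 40 days lay only 0.38 above the highest 10-day sample.

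**Figure D2:**
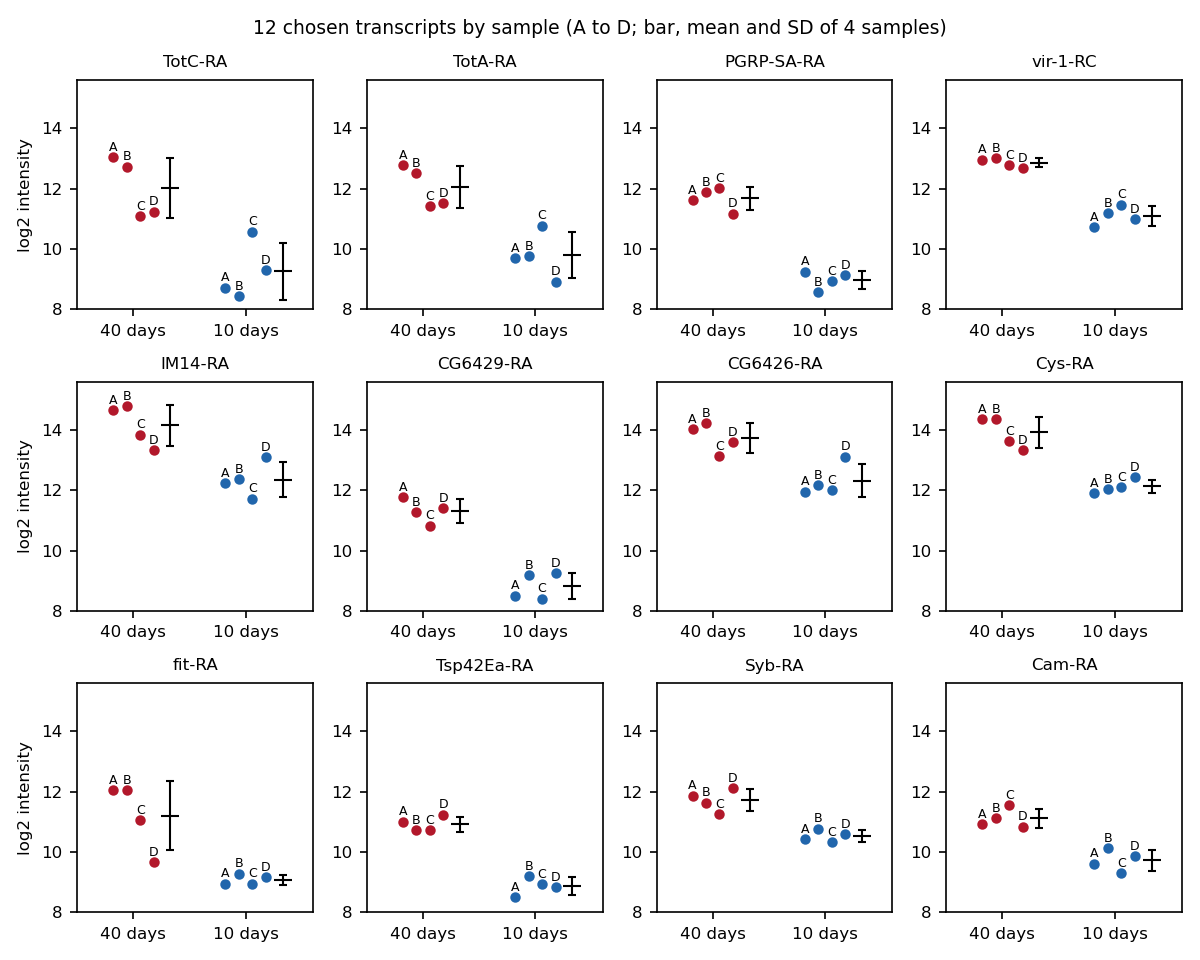
Log2 intensity (vertical axis) of 12 chosen transcripts in the 4 samples at 40 days (red, left) and the 4 at 10 days (blue, right), lettered A to D, with the mean and SD of each age in black. TotC, TotA, IM14, Cys and fit have 40-day samples A and B above C and D by 0.73 or more. CG6426 and vir-1-RC have the same order with smaller distances of 0.43 and 0.18. PGRP-SA, CG6429, vir-1-RC and Tsp42Ea keep the ages more than 1 log2 unit apart in every sample.

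Genes of membranes and vesicles are described next, with differences of 0.87 to 2.05. Tsp42Ea, one of a cluster of genes for tetraspanins, which organise membrane proteins, had 11.01, 10.72, 10.72 and 11.24 at 40 days, against 8.51, 9.21, 8.93 and 8.84 at 10 days. It was 4.15-fold higher with a gap of 1.52, and its relative Tsp42El was 1.83-fold higher with a gap of 0.23. The 4 named transcripts of synaptobrevin (Syb), the vesicle SNARE, were among the 60. Syb-RA had 11.87, 11.64, 11.27 and 12.12 at 40 days, against 10.43, 10.78, 10.32 and 10.60 at 10 days, and the other transcripts differed by 0.87 to 1.06. All 4 were highest in sample D and lowest in sample C at 40 days, and they are readings of one gene rather than separate evidence. Rala, a GTPase that acts through the exocyst in tethering vesicles, was 2.34-fold higher (11.38 ± 0.25 at 40 days and 10.16 ± 0.27 at 10 days, SD, n = 4 each).

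Genes of endosomes and lysosomes and a membrane-binding annexin differed by 0.87 to 1.36. Vps20, a subunit of ESCRT-III, had the smallest spread of all at 40 days, with 10.70, 10.72, 10.62 and 10.57, against 9.6, 9.69, 9.78 and 10.08 at 10 days. Its difference was 0.87. VhaM9.7-2, a small subunit of the V-ATPase, had means of 11.25 ± 0.26 at 40 days and 10.33 ± 0.50 at 10 days (SD, n = 4 each), with a gap of 0.16. CG7997, an alpha-galactosidase that splits sugars in lysosomes, was 2.57-fold higher and had 11.95, 11.97, 11.62 and 10.56 at 40 days, against 10.11, 10.05, 10.24 and 10.25 at 10 days. Sample D at 40 days lay near the 10-day samples, which differed little among themselves (SD 0.10). Annexin IX (AnnIX, now AnxB9), which binds membranes in the presence of calcium, was 2.45-fold higher as transcript RA and 2.35-fold higher as RC. AnnIX-RA had 11.70, 11.71, 11.91 and 11.82 at 40 days, against 10.58, 10.38, 10.42 and 10.58 at 10 days, with SDs of 0.10 and 0.11 and a gap of 1.11.

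Signalling and cell shape were covered by single genes. Calmodulin (Cam), the calcium sensor that also tunes muscle and ion channels, had 10.93, 11.12, 11.56 and 10.84 at 40 days, against 9.61, 10.12, 9.29 and 9.87 at 10 days, a difference of 1.39. Syndecan (Sdc), a heparan sulphate proteoglycan of the cell surface, had 10.83, 10.87, 10.57 and 10.36 at 40 days, against 9.14, 9.49, 8.78 and 9.57 at 10 days, and was 2.67-fold higher. Both had the ages more than 0.7 apart. Profilin (chic), which feeds actin into filaments, was 2.30-fold higher, the small GTPase R (Rap1) 2.17-fold and the adaptor 14-3-3zeta 1.80-fold. Arc2, a gene whose protein resembles a retroviral capsid, had 10.61, 10.93, 10.33 and 11.89 at 40 days, against 8.83, 9.42, 9.35 and 9.69 at 10 days. CG11155, which encodes a glutamate-gated ion channel, was 2.73-fold higher but had 10-day samples B and D at 9.93 and 10.07 and 10-day samples A and C at 8.56 and 8.29, all below the lowest 40-day sample of 10.26.

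Among enzymes, carriers and some other genes the differences were moderate. CG2852, a cyclophilin that helps proteins fold, averaged 12.28 ± 0.20 at 40 days and 11.43 ± 0.25 at 10 days (SD, n = 4 each). CG2064, now Rdh1, a retinol dehydrogenase, differed by 1.13, and Start1, which has a lipid-binding START domain, by 0.93. CG11395, now Gbp2, and CG11009, now Wbp2, differed by 1.03 and 1.0.

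The remaining named members, whose roles are not described here, ran from CG6891 and CG15347 at the top to CG15098 at the bottom. CG6891-RB had 10.03, 11.04, 11.11 and 10.76 at 40 days, against 8.60, 8.79, 8.97 and 8.52 at 10 days, a 4.04-fold difference. CG15347 was 3.25-fold higher, CG30281 3.17-fold, CG18858 3.0-fold and CG17124 2.87-fold, and the gap was 0.39 or more for each of these. CG30148, CG30269, CG7523, CG31955, CG14933, CG31758, CG31769, CG9821, CG7267, CG11686, CG34423, CG32695 and CG15098 were between 1.76-fold and 2.44-fold higher. The unnamed transcripts FBtr0077544 and FBtr0100644 differed by 0.96 and 0.91.

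Within an age the chosen transcripts varied less than other transcripts of that brightness. The SD over 4 samples had a median of 0.31 at 40 days and 0.30 at 10 days, against 0.46 and 0.48 for the 1370 bright transcripts. Since separation of the samples was a condition of the rule, a small SD was favoured by the choice. The SD was larger at 40 days than at 10 days for 23 of the 60, and for 46.4% of the bright transcripts. If the 40-day values mix samples, as the match to the scans leaves possible, the SDs of the ages are not alike in kind.

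**Figure D3:**
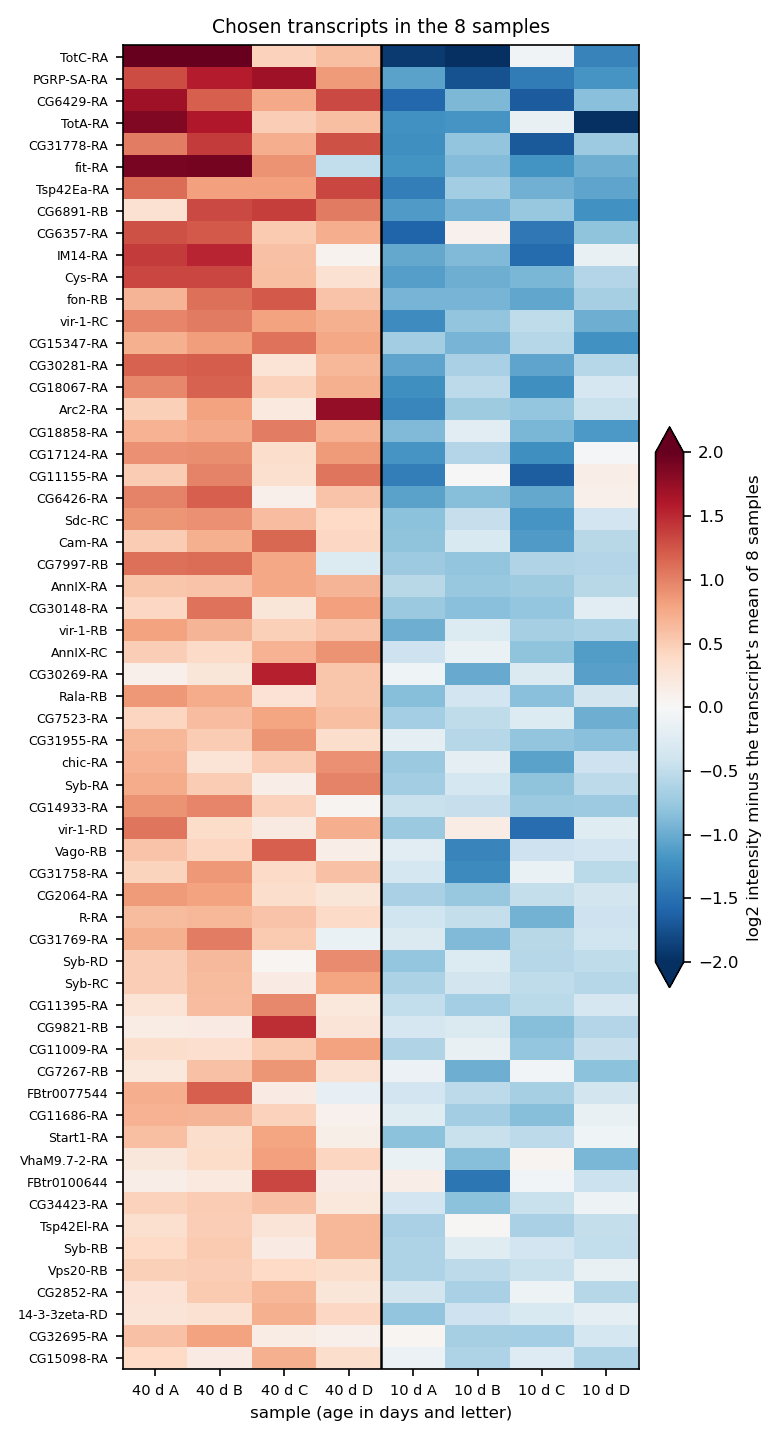
The 60 chosen transcripts (vertical axis, by falling difference) in the 8 samples (horizontal axis, 40 days on the left of the line), coloured by the log2 intensity minus the transcript's mean of 8 samples. Red on the left and blue on the right is set by the rule, while the stronger red in columns A and B at 40 days for TotC, TotA, fit, IM14 and Cys is not.

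The 40-day samples differed among themselves in the same way for many members. Samples A and B both lay above C and D for 23 of the 60 (38.3%), against 22.6% of the bright transcripts and 11.1% of all. The distance between the lower of A and B and the higher of C and D was largest for 5 transcripts that encode secreted proteins. It was 1.49 for TotC, 1.0 for fit, 0.99 for TotA, 0.80 for IM14 and 0.73 for Cys. Genes of other kinds were also among the 23, with 0.45 for CG2064, 0.26 for Sdc-RC, 0.18 for Rala-RB and 0.07 for Vps20-RB. The order was seen in 22 members from the Cy3 columns alone and in 19 from the Cy5 columns alone, 21 and 19 of them among the same 23. With each column placed under the sample whose scanner channel it follows, 13 members (21.7%) showed it, 12 of them among the 23, against 21.8% of the bright transcripts, so under that assignment the members had it no more often. After quantile normalization 23 members had it, against 29% of the bright transcripts and 21.7% of all. Sample C was the highest 40-day sample for 21 members (35%) and for 45.1% of the bright transcripts. Sample B was the highest for 18 members (30%) and for 14.5% of the bright transcripts, and sample A for 10 (16.7%) and for 19.2%. Sample D was the lowest for 24 members and for 44.3% of the bright transcripts, and sample C for 22 members and for 20.2%. At 10 days sample D was highest for 23 members (38.3%), against 21.2% of the bright transcripts.

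Each array held both ages, and so gives 8 differences per transcript. Columns were set on the array whose raw scan they match, with samples named as the columns are. The 40-day sample was the brighter on all 8 arrays for 58 of the 60 members, and on 7 arrays for vir-1-RD and FBtr0100644. Over all transcripts all 8 arrays were so for 838 (5.04%), and over the bright ones for 105 of 1370 (7.66%). The rule chose the members on these same columns, so their count follows largely from the choice and nothing is read from it. Neighbouring arrays share samples in this layout, so the 8 differences are not independent. On the 4 arrays with the 40-day sample in Cy3 the members' median difference was 1.33, and on the 4 arrays with it in Cy5 it was 1.10. The first exceeded the second for 47 of the 60, and for 74.7% of the bright transcripts.

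Between dyes the columns of the value table were not on one scale. Medians of the columns were 6.51 to 6.70 for 40 days in Cy3, 6.17 to 6.43 for 10 days in Cy3, 6.2 to 6.35 for 40 days in Cy5 and 6.52 to 6.73 for 10 days in Cy5. The median difference over all transcripts was thus 0.28 in Cy3 and -0.27 in Cy5. For the members it was 1.62 in Cy3 and 0.86 in Cy5, larger in Cy3 for all 60. A test of the age difference in Cy5 against that in Cy3 with limma called 11304 transcripts (67.9%) at an adjusted p under 0.01, and 49 of the 60 members. After quantile normalization between columns 3 transcripts (0.018%) were called and 0 members, although 20 members had an unadjusted p under 0.05. The members' medians were then 1.33 in Cy3 and 1.17 in Cy5, and 36 of the 60 had the larger difference in Cy3. The mean of both dyes, which the rule used, hardly changed (median 1.21 after quantile normalization). No probe of a member reached the scanner's ceiling of 65535 in any channel, and the highest reading was 58513.

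All 60 members had 8 probes, and 476 of these 480 probes were brighter at 40 days. The samples of the ages did not overlap at 382 of them (79.6%), against 3363 of 132999 gene probes on the array (2.53%). The members were chosen on the mean of these same probes, so that share was largely set by the choice. Probes of a transcript can also lie close together, with positions from 903 to 916 for AnnIX-RC and from 1593 to 1601 for Start1. The 4 probes that were lower belonged to Rala-RB, vir-1-RB, vir-1-RD and CG6357, and the probe differences ran from -0.19 to 3.49. All 8 probes were separated for 17 transcripts, among them PGRP-SA, vir-1-RC, Tsp42Ea, CG6429, IM14, Sdc-RC, Cam, Arc2 and Vago. The range over the 8 probes had a median of 0.95 and exceeded 2 for PGRP-SA, fon, CG6357 and CG30281.

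The difference grew towards the 3′ end of the transcript. The rule averaged all probes and set no condition on their order, but the members were chosen on these same values. From the most 5′ to the most 3′ probe the members' median difference was 0.93, 0.92, 1.21, 1.26, 1.40, 1.49, 1.5 and 1.55. In the 1306 other bright transcripts it stayed between -0.33 and -0.17. The 4 probes nearest the 3′ end gave the larger difference for 54 of the 60 members, against 50.9% of all transcripts and 57.5% of the bright ones. Members were chosen for a large positive difference and the other bright transcripts had medians below 0, so these shares are not like for like. The members' median was 1.47 over the 4 probes nearest the 3′ end, against 1.02 for the 4 probes nearest the 5′ end. Brightness moved along the transcript too, since the median 10-day level of the members was 8.95 over the 4 probes nearest the 5′ end and 10.25 over the 4 nearest the 3′ end, and its part in the pattern was not tested. In the other bright transcripts the median level also rose along the probes, from 7.92 at the first to 11.24 at the last. The largest contrasts were those of fon, with 2.67 at the 3′ end and 0.91 at the 5′ end, of CG11395 with 1.66 and 0.40, and of PGRP-SA with 3.25 and 2.16. At the 5′ end fon and CG11395 had 10-day levels of only 6.92 and 6.86, within the range of 6.69 to 7.60 that the 95th percentile of control probes spanned over the columns. A limma test of the end difference called 111 of 16617 transcripts (0.668%) at an adjusted p under 0.05, and of the members PGRP-SA, CG30281 and CG6357 but neither fon nor CG11395. As that test uses the ages on which the members were chosen, nothing is read from its count. vir-1-RB went the other way, with 0.76 at the 3′ end and 1.78 at the 5′ end. The ends were compared after the data had been seen, and the part of RNA amplification in the pattern was not tested.

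**Figure D4:**
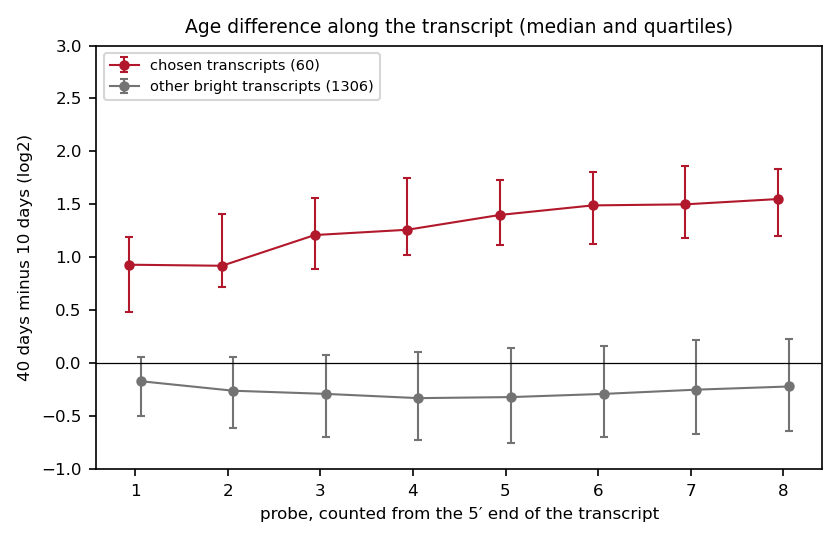
Difference between 40 and 10 days (log2, vertical axis) at each of the 8 probes counted from the 5′ end (horizontal axis), as median and quartiles over the 60 chosen transcripts (red) and the 1306 other transcripts with a 10-day mean of at least 8.5 and 8 probes (grey). The red median climbs along the transcript to 1.55 at the last probe, and the grey median stays below 0.

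There were 9 genes with more than one named transcript on the array and at least 1 of these among the 60, which allows transcripts of a gene to be set side by side. Syb, vir-1 and AnnIX had 4, 3 and 2 members. Another 9 named transcripts of these genes were not chosen, and all had a positive difference of 0.48 to 1.58. Names came only from rows of induced probes, so this direction was favoured by the naming, and transcripts without a rise may be missing. Sdc-RA and Sdc-RD differed by 1.13 and 1.08 without overlap and were left out by their 10-day means of 8.23 alone. Likewise Rala-RA (1.13) and CG6891-RA (1.58) fell short only in brightness, at 7.92 and 8.10. Vps20-RA was dim at both ages and differed by 0.53. AnnIX-RB differed by 0.70 with overlapping samples, whereas AnnIX-RA and AnnIX-RC were separated. Transcripts of a gene can share exons and so target the same RNA, and the probe sequences that would settle this were not used here.

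**Figure D5:**
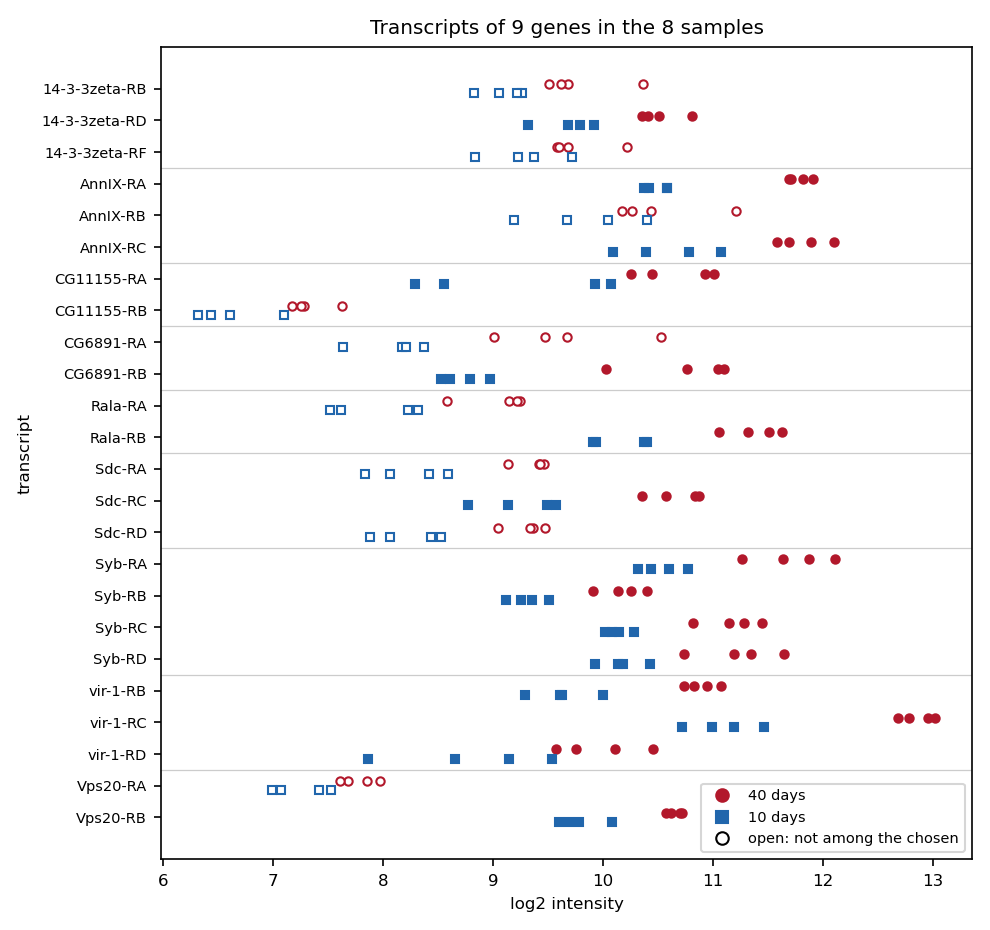
Log2 intensity (horizontal axis) of each named transcript (vertical axis) of the 9 genes with several, at 40 days (red circles) and 10 days (blue squares), 4 samples each, filled for chosen transcripts and open for the others. Every transcript has its red points to the right on average, which naming from induced probes favours, and the ages overlap for 14-3-3zeta-RF and AnnIX-RB.

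Of the 50 member genes that could be placed with the RefSeq annotation, 23 (46%) lie on chromosome 2R, against 28% of the 614 matched genes in the study's list of induced genes and 20.4% of protein-coding genes. Chromosome 3L held 2 (4%), against 15.1% and 19.6%. There were 5 pairs within 10 genes of each other. Besides the Turandot and lysozyme pairs these are CG31778 and CG31955 with 2 genes between them, Bbd and CG30148 with 3, and Vps20 and CG2852 with 8. Such pairs were not counted among other genes, so nothing is read from their number.

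Names used here come from the rows of the probe list that mark induced probes, and its other rows were not used, so the direction of named groups follows from the choice of names and is not independent evidence. In the list of JAK/STAT and stress-induced secreted proteins 7 of 19 genes were named, with 9 transcripts, of which 2 passed limma at an adjusted p under 0.01 as higher, and 6 were members. Of the 16 peptidoglycan recognition genes 7 were named, with 2 of 8 transcripts higher and 1 a member. Of 35 tetraspanins 10 were named, with 3 of 10 transcripts higher and 2 members. Of 40 genes for SNAREs and exocytosis 10 were named, with 1 of 16 transcripts higher and 5 members, and of 39 genes for actin and the cell cortex 16 were named, with 0 of 19 higher (15 at an unadjusted p under 0.05) and 2 members. Smaller lists were lysozymes (5 of 12 genes named, 1 of 5 transcripts higher, 2 members), serpins and cystatin (6 of 26 named, 0 of 7 higher, 6 at an unadjusted p under 0.05, 1 member) and ESCRT (6 of 18 named, 0 of 7 higher, 6 at an unadjusted p under 0.05, 1 member). The V-ATPase had 2 of 27 genes named, 0 of 2 transcripts higher (2 at an unadjusted p under 0.05) and 1 member, the annexins 1 of 3 named, 1 of 3 higher and 2 members, and calcium, cAMP and small G protein signalling 6 of 26 named, 1 of 10 higher and 3 members. No named transcript in these lists had a lower mean at 40 days. Median differences over the named transcripts were 1.37 for peptidoglycan recognition, 1.32 for the JAK/STAT list, 1.74 for tetraspanins, 0.89 for SNAREs and exocytosis and 0.69 for actin and the cortex, beside 0.01 for all transcripts. Naming from induced probes favours the size of these medians as well as their direction. Lists for metal handling (3 of 18 named) and for cytochrome P450 and glutathione enzymes (4 of 21 named) had no member, with 0 transcripts higher (3 in each at an unadjusted p under 0.05). Their median differences were 2.12 and 0.62.

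Markers of other cells could be followed only in part. Of 19 haemocyte markers 5 were named (CG16876, crq, Idgf1, Idgf3 and fon), and their mean level was 8.80 to 9.44 in the 40-day samples and 7.72 to 7.80 in the 10-day samples. Of 16 fat body markers Rfabg and fit were named, with 9.25 to 10.80 at 40 days and 7.96 to 8.94 at 10 days. One member came from each list, fon and fit. Both were chosen for their age difference, so the separation of these mean levels was favoured by the choice. Among the other named markers the ages overlapped for Rfabg (gap -0.33), crq (-0.26) and Idgf3 (-0.36). They did not overlap for CG16876 (1.52) and Idgf1 (0.56). The part of haemocytes and fat body in the differences was not tested. Of 22 cardiac and muscle markers 1 was named, the potassium channel KCNQ, at 6.49 to 6.88 in 40-day samples and 6.35 to 6.61 in 10-day samples, and of 11 neuronal markers nrv3, at 6.82 to 7.12 in 40-day samples and 6.11 to 6.72 in 10-day samples. No marker of nephrocytes, testis or accessory gland was named, so the tissue could not be checked against its defining markers.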

How the data were processed

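Cardiac tubes of male flies aged 40 and 10 days were measured on 2-colour NimbleGen arrays, 4 samples per age and 2 dyes per sample. The authors deposited scanner intensities written by NimbleScan 2.5.26, not normalized, and a value table in linear intensity, which they had normalized by lowess. That table was matched to the 137099 scanner spots by position. Its columns have medians of 70.9 to 101.1 over gene probes. The 4100 control probes were left out. Values were turned to log2 and averaged over the probes of a transcript and over the dyes of a sample.

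Ages were compared in 16637 transcripts with limma 3.58.1 (lmFit, eBayes, Benjamini-Hochberg adjustment at 0.01) under R 4.3.3 with statmod 1.5.0, and the dye by age test used the Cy5 minus Cy3 value of each sample. The script was tested on simulated data. Python 3.11.15, numpy 2.4.6, pandas 2.3.3 and matplotlib 3.10.9 made tables and figures. The number of arrays limits the precision.

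Names came by transcript number from the held rows of the study's probe list, all marked as induced, with other rows not used, for 58 of the 60, and 56 were matched to RefSeq. Named in the text are the 10 largest differences, the 5 highest 10-day means, up to 4 members of each of 19 lists, genes with several members, the transcripts nearest each limit and members called in the dye test (as a count). Other members were named after their values had been seen. Members and lists were chosen with earlier results of these data known. The study's own fold changes and p-values, which the list also holds, were not used.

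Alternatives were the median of probes, either dye alone, columns under the channel they follow, quantile normalization, scanner intensities (normexp with offset 50 or no background correction, then loess and Aquantile), leaving out dim probes, a replicate block, a trended robust prior, a threshold of 0.05, other limits in the rule and leaving out each sample. The 4 probes nearest either end were added once the data were known.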

Additional observations from a re-analysis of the deposited data

Results flagged for a closer look

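In 5 of 120 sets of 4 samples (4.2%) 1 sample lay far from the other 3, where chance alone gives about 5%. Of these 5, 3 concern sample C at 40 days. CG9821 was at 10.89 in that sample, against 9.57 to 9.67 in the other 40-day samples. FBtr0100644 was at 10.67 there, against 9.46 to 9.53, and CG17124 was low at 10.37, against 10.88 to 10.96. At 10 days, R was low in sample C at 9.30, against 9.78 to 9.86 in the others, and CG30148 was high in sample D at 9.47, against 8.85 to 8.95.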

How the results depend on the processing

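The rule kept 54 to 60 of the 60 transcripts under the alternatives of probe summary, normalization, scanner values, dim probes, column assignment and left-out samples. It chose 106 (58 of the 60) from Cy3 alone and 31 (all among the 60) from Cy5 alone, 143 (59 of the 60) from the 4 probes nearest the 3′ end and 31 (30 of the 60) from those nearest the 5′ end, and between 59 and 91 when a sample was left out, the highest without 40-day sample D. Leaving out a sample could not undo the separation of the ages on which the 60 were chosen. Placing columns under the channel they follow left each age mean as it was, so the limits on difference and brightness were still met. The other alternatives reuse the same arrays. The 54 to 60 kept were thus largely set by the choice, and nothing is read from them.

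Counts of limma calls moved more. Of 50 higher, 6 lower and 12 members, Cy3 alone gave 117 higher and 29 members, Cy5 alone 13 lower and 7 members, columns under the channel they follow 118, 16 and 30, scanner intensities 136, 12 and 29, scanner intensities without background correction 114 higher and 27 members, a threshold of 0.05 121, 17 and 31, and the trended robust prior 3 lower and 4 members. With samples left out in turn there were 20 to 56 higher, 3 to 8 lower and 4 to 10 members, the fewest higher without 10-day sample A and the fewest members without 40-day sample B.

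By the labels same-lettered samples of the ages shared arrays, while the columns of the value table follow another layout, so whether letters pair the samples is not settled. Deviations of same-lettered samples correlated at -0.19, -0.03, 0.47 and 0.25 for A to D. With the replicate block limma called 4 higher, 0 lower (970 at an unadjusted p under 0.05) and 1 member, and the dye by age count was 10936.

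The dye by age count of 11304 was 2736 with columns under the channel they follow, 1454 without dim probes, 3 after quantile normalization and 0 from scanner intensities with and without background correction (920 and 1135 at an unadjusted p under 0.05), and 8476 to 10624 with samples left out. The age differences of the members kept their sign in all 1080 comparisons with an alternative, and 106 of these moved by more than the SD. Where a sample was left out, the separation that the rule required fixed the sign beforehand. Placing columns under the channel they follow left the mean of each age as it was. Those comparisons could not change sign, so nothing is read from them. The causes were not tested, and brightness near the control probes limits what dim transcripts can show.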
